A study of Mus musculus with 12 samples.

Results

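The genes described here are 10 genes of disease-associated microglia and other phagocytes: Trem2, Tyrobp, Clec7a, Itgax, Axl, Cst7, Cd68, Lpl, Spp1 and Gpnmb. They were taken as listed symbols, not by a measured value, and all 10 were found among the 25655 genes of the deposited tables. RNA was taken from the whole retina of C57BL/6J mice 2 days after optic nerve crush (ONC), in which the nerve of the left eye was pinched behind the eye and the axons of the retinal ganglion cells (RGCs) were injured. The mice were 8 to 10 weeks old by the sample labels and males and females were used. After ONC each eye received a single intravitreal injection of PBS (the control), of fluvastatin (a statin, which blocks HMG-CoA reductase, the enzyme that commits the cell to cholesterol synthesis) or of matrix-bound nanovesicles (MBV, small vesicles released from the extracellular matrix of porcine urinary bladder). Each group had 3 libraries. A group given MBV and fluvastatin together is not analysed here, and no uninjured retina is part of the comparisons, so every value is that of an injured and injected eye.

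Microglia are the resident phagocytes of the retina. At rest they survey the plexiform layers. Around dying neurons, plaques or myelin debris they lower their surveying receptors and take up a program that depends in part on TREM2, a lipid-sensing surface receptor, and on TYROBP (DAP12), the adaptor that carries its signal to the kinase SYK. The program adds receptors that bind debris (Clec7a, Itgax, Axl), lysosomal proteins that handle what is engulfed (Cst7, Cd68), lipid handling (Lpl) and secreted or shed glycoproteins (Spp1, Gpnmb). Most of these genes are not exclusive to microglia. Spp1 is also made by some RGCs, Lpl and Axl by several neural and vascular cells, and Gpnmb by pigment cells.

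A PBS library held 26325065 to 30992040 gene counts, a fluvastatin library 23634662 to 27098889 and an MBV library 21349516 to 26738043. Levels are given as counts per 1000000 gene counts (CPM) and, where genes are compared with each other, as RPKM, which also divides by the exon length. The labels carry 2 sets of library numbers, one of which holds the PBS libraries and the other the fluvastatin and MBV libraries, so the effect of a single treatment against PBS and a difference between the sets cannot be told apart. MBV against fluvastatin lies within 1 set. The labels do not say whether the 3 libraries of a group came from separate animals, and the study speaks of biological replicates. The p-values measure the spread between these libraries. MBV replicate 3 stood apart. The summed level of 10 monocyte markers was 23.9 CPM in this library, against 5.12 and 2.20 CPM in the other MBV libraries, 2.28 to 2.69 CPM with fluvastatin and 3.29 to 7.03 CPM with PBS. Of 8 neutrophil markers the sum was 5.16 CPM in the same library and 1.08 to 1.94 CPM in the other 8, with Ly6g, the defining neutrophil marker, at 0 in all 9. Results with MBV are therefore given with and without this library. The markers of the labelled tissue were high: Gnat1, the rod transducin, stood at 8239 ± 404 CPM with PBS (SD, n = 3; all values after ± are SDs of 3 libraries).

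All 10 genes were detected in all 9 libraries, above the 3 counts taken as the limit of detection, which cover counting error only. In PBS-treated retina the order by RPKM began with Spp1 at 9.13 ± 1.46 RPKM and Gpnmb at 7.38 ± 1.25 RPKM, whose ranges overlapped. Tyrobp (3.36 ± 1.29 RPKM), Axl (2.63 ± 0.347 RPKM) and Cd68 (2.25 ± 0.471 RPKM) followed, each overlapping its neighbour. Lpl stood apart from both neighbours at 1.58 ± 0.266 RPKM, as did Clec7a at 0.598 ± 0.198 RPKM. The lowest were Cst7 at 0.300 ± 0.0196 RPKM and Trem2 at 0.261 ± 0.0469 RPKM, which overlapped, and Itgax at 0.107 ± 0.0545 RPKM, below all the others. The receptor TREM2 was thus measured at a lower transcript level per length than its adaptor TYROBP, which also serves other receptors. The order and the gaps between genes depend on the length used. It was the union of all annotated exons, 4946 bases for Trem2, 682 for Tyrobp and 12225 for Lpl. This union can be longer than the transcripts present, which lowers the RPKM, and lengths of single transcripts were not tried.

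**Figure D1:**
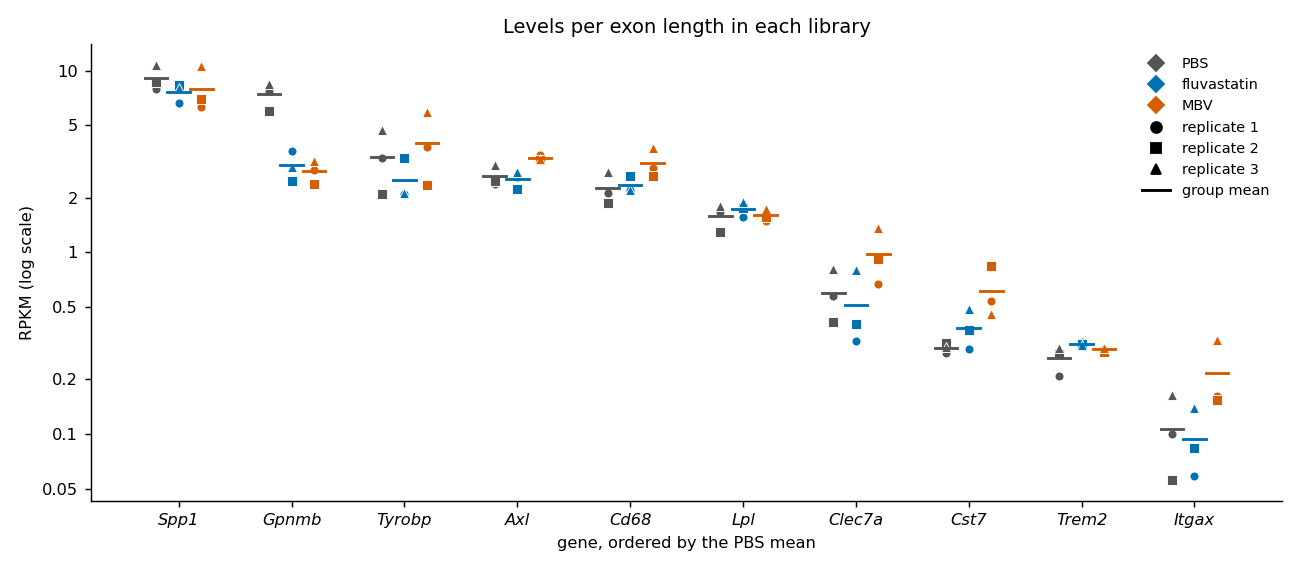
RPKM on a log axis for the 10 genes, ordered by the PBS mean, with one point per library (grey PBS, blue fluvastatin, orange MBV; the shape gives the replicate) and a line at each group mean. Spp1 leads at 9.13 RPKM and Itgax is last at 0.107 RPKM with PBS, and Gpnmb is the gene whose treated libraries all lie well below PBS.

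The genes lie on several chromosomes. In GRCm39 coordinates of the deposited tables, Trem2 is at chr17:48653429-48661175, Tyrobp at chr7:30113185-30117010, Cst7 at chr2:150412335-150420864, Itgax at chr7:127728719-127749829, Lpl at chr8:69333143-69360100, Spp1 at chr5:104582984-104588916 and Gpnmb at chr6:49013480-49047863, all on the forward strand. Clec7a at chr6:129438554-129449742, Cd68 at chr11:69555039-69556979 and Axl at chr7:25456698-25488130 are on the reverse strand. Only Spp1 overlaps another annotated gene, Gm42793 on the same strand, which had 0 counts. The counts are sums over whole genes and do not separate exons or isoforms.

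The RefSeq promoter windows, 300 bases from 250 before to 50 after the transcription start in GRCm38.p6, held 8 of the 10 genes, without Tyrobp and Lpl. Their build differs from that of the counts, and no position was converted. The letters TGANTCA, which is the same on both strands and is the core bound by AP-1 (FOS and JUN dimers), stood in 5 of the 8 windows (Trem2, Cst7, Itgax, Gpnmb and Cd68) and in 8.97% of the windows of all 27025 genes. GAGGAAG on either strand, a core of sites for PU.1, the myeloid transcription factor, stood in 3 of the 8 (Trem2, Spp1 and Axl) and in 15.4% of all. The E-box CACGTG on either strand was in 0 of the 8, against 8.09% of all, and TCATGTG, a variant of the M-box of pigment genes, on either strand in 0 of the 8, against 4.31% of all. These matches are letters in a window and do not show binding. The 5 windows with the AP-1 letters are shown because they cover both the gene that changed most, Gpnmb, and 4 genes that did not pass the test against PBS. Each runs from 160 bases before to 20 after the start, 5′ to 3′ on the gene's strand, with the AP-1 letters in capitals.
Trem2, chr17:48346241-48346420, forward strand: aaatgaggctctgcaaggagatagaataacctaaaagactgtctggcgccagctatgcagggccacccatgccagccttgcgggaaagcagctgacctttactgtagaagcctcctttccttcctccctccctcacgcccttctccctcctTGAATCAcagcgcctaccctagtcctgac
Cst7, chr2:150570255-150570434, forward strand: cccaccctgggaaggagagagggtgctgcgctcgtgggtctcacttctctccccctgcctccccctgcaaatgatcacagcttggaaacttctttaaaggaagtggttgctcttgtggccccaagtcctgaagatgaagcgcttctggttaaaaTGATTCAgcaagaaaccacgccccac
Itgax, chr7:128129390-128129569, forward strand: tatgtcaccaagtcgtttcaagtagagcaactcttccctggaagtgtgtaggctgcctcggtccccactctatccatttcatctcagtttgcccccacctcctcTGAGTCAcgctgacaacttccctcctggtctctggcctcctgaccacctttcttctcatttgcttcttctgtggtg
Cd68, chr11:69666151-69666330, reverse strand: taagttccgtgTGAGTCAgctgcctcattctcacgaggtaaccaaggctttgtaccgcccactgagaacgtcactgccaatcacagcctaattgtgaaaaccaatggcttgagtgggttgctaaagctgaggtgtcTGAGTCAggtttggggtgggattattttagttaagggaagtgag
Gpnmb, chr6:49036358-49036537, forward strand: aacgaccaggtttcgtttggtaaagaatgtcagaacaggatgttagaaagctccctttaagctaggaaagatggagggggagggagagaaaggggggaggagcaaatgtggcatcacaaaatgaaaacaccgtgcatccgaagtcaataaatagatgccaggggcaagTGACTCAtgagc
Cd68 held the letters at 2 places, and in Gpnmb they lay after the start, at positions 9 to 15 counted from 1 at the first transcribed base.

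To ask how far fluvastatin or MBV alone moved this program compared to PBS, and whether they differed from each other, each pair of groups was tested with the quasi-likelihood method of edgeR, with p-values adjusted over all genes after Benjamini and Hochberg (false discovery rate, FDR). A gene was called at an FDR under 0.05. With fluvastatin compared to PBS, 1 of the 10 genes was called, Gpnmb, which was lower, and 0 were called higher. In this comparison 19.6% of the 18818 genes tested were called, 9.36% higher and 10.2% lower. With MBV compared to PBS, Axl was called higher and Gpnmb lower, against 26.1% of 18897 genes called, 12% higher and 14.1% lower. Between MBV and fluvastatin 0 of the 10 were called in the edgeR test, against 0.0588% of 18721 genes called, 0.0267% higher and 0.032% lower. An unadjusted p under 0.05 by edgeR was found for 3 of the 10 (Itgax, Clec7a and Axl) and for 2001 of the 18721 genes. With PBS as the control it was found for 6118 of 18818 genes with fluvastatin and for 7152 of 18897 with MBV. These numbers are the background of the unadjusted counts given below for the lists. The shares of all genes called are likewise the background of the list counts in the reported fits, and no list was tested against them. DESeq2 also called 0 of the 10 between MBV and fluvastatin. The shares of the 10 genes called with PBS as the control, 1 and 2 of 10, were thus not above those of all genes. Their median log2 fold change was -0.11 with fluvastatin, beside -0.01 over all genes, and 0.27 with MBV, beside 0.01 over all genes. For MBV it was 0.18 without replicate 3. The PBS libraries are shared by both comparisons, so the values are set side by side and are not independent.

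Because the libraries hold RNA of the whole retina, fewer cells of a type and less RNA per cell cannot be told apart in any of these values.

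**Figure D2:**
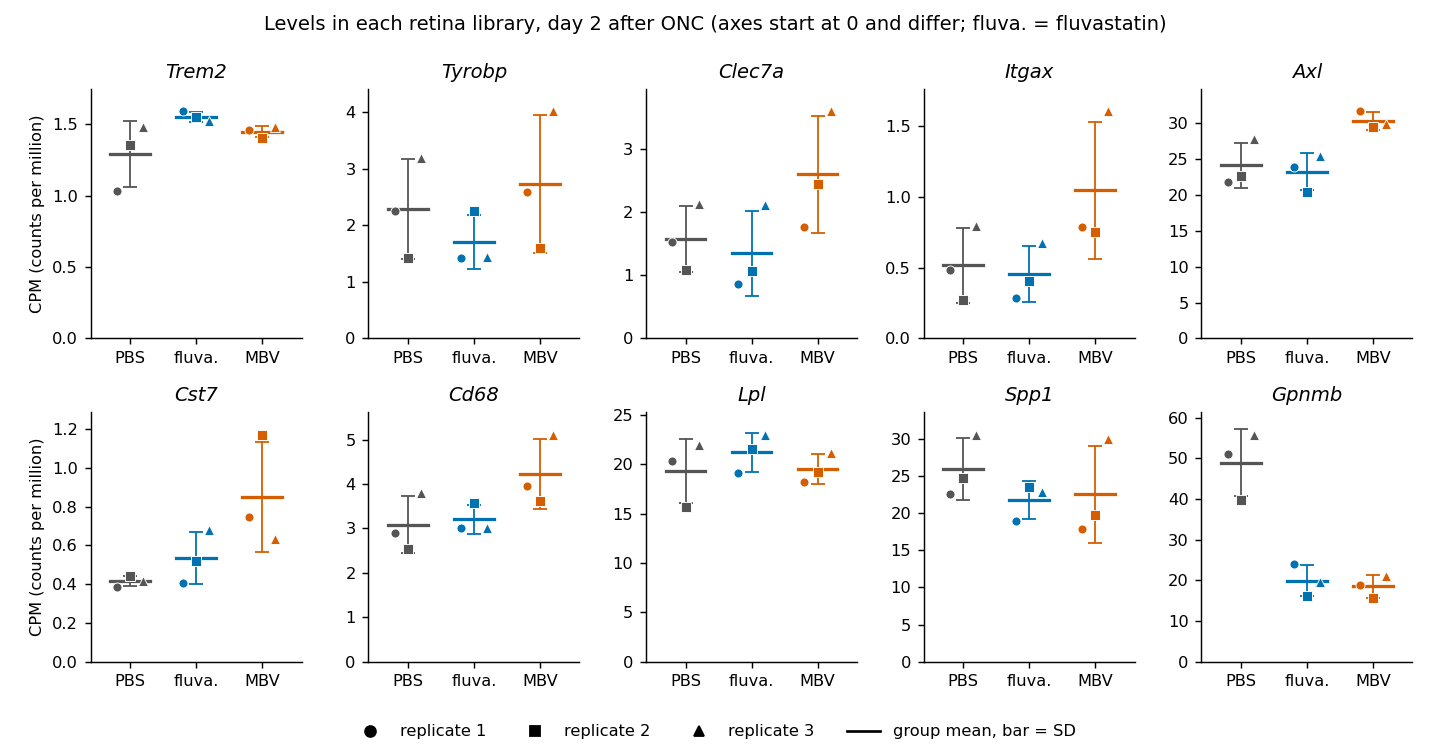
CPM of the 10 genes, one panel each with its axis from 0, in the 3 PBS, 3 fluvastatin and 3 MBV libraries; points are libraries, shapes replicates, lines group means and bars the SD. Gpnmb falls from 39.8 to 55.9 CPM with PBS to 15.6 to 24.0 CPM in the treated libraries, the MBV libraries of Axl lie above the other 6, and PBS replicate 3 and MBV replicate 3 top their groups in 9 and 8 of the panels.

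The receptor Trem2 was at 1.03, 1.36 and 1.48 CPM with PBS (32, 40 and 39 counts), at 1.59, 1.55 and 1.52 CPM with fluvastatin (39, 42 and 36 counts) and at 1.46, 1.41 and 1.48 CPM with MBV (39, 30 and 35 counts). The fluvastatin libraries lay above PBS without overlap, but by little, and the log2 fold change of 0.28 (SE 0.22, 95% confidence interval -0.21 to 0.77) did not pass the test (FDR 0.426). MBV gave 0.14 (SE 0.23, FDR 0.690). Groups that do not overlap were frequent here, since 36.5% of all genes tested had none between fluvastatin and PBS and 40.7% had none between MBV and PBS.

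Its adaptor Tyrobp varied more within groups than between them. The libraries were at 2.26, 1.43 and 3.19 CPM with PBS, at 1.43, 2.25 and 1.44 CPM with fluvastatin and at 2.58, 1.59 and 4.01 CPM with MBV, the last in the library with high monocyte markers. All 3 groups overlapped. The log2 fold change was -0.40 with fluvastatin (SE 0.30, FDR 0.395) and 0.24 with MBV (SE 0.37, FDR 0.671), and the latter became -0.16 (FDR 0.746) without MBV replicate 3.

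Among 16 other genes of TREM2 and TYROBP signalling, 0 were called with fluvastatin by edgeR or DESeq2, 1 had an unadjusted p under 0.05 (median log2 fold change 0.07), and 3 were called higher with MBV, with a median of 0.47 that was 0.15 without MBV replicate 3. The 3 were Vav3, an exchange factor for RAC GTPases (21.7 ± 1.42 CPM with PBS, 27.8 ± 2.96 CPM with MBV, FDR 0.0159), Pik3cd, the leukocyte-enriched catalytic subunit of PI3 kinase (7.42 ± 0.247 to 10.6 ± 1.48 CPM, FDR 0.0176), and Lyn, a SRC-family kinase that phosphorylates such receptors (5.38 ± 0.979 to 7.52 ± 0.348 CPM, FDR 0.0405). Without fluvastatin replicate 1, 2 were called higher with fluvastatin (Vav3 and Pik3cd) and 1 lower (Blnk). With MBV 0 were called without PBS replicate 1 or PBS replicate 2, and Lyn was called in 1 of the 6 fits that left out a library, the fit without PBS replicate 3, in which Pik3cd was not. Without MBV replicate 3, Vav3 and Pik3cd were called higher, Lyn had an FDR of 0.0639, and Blnk, an adaptor downstream of SYK, was called lower (log2 fold change -1.46, FDR 0.015). Syk itself was at 1.09 ± 0.146 CPM with PBS and 2.25 ± 1.24 CPM with MBV and was not called (FDR 0.0739); it and Blnk were singled out after their values were seen. Between MBV and fluvastatin all 16 log2 fold changes were above 0, 0 were called by edgeR or DESeq2 (3 had an unadjusted p under 0.05), and the median was 0.41, or 0.34 with genes at 0 in a group set to their bound and 0.08 without MBV replicate 3.

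Clec7a, which encodes dectin-1, a receptor for fungal beta-glucans that marks plaque-associated microglia, stood at 1.52, 1.09 and 2.13 CPM with PBS, 0.857, 1.07 and 2.12 CPM with fluvastatin and 1.76, 2.44 and 3.59 CPM with MBV. The MBV libraries reached highest, yet the lowest of them lay within the range of PBS. Its log2 fold change was 0.69 with MBV (SE 0.33, 95% confidence interval -0.04 to 1.43, FDR 0.154), 0.36 without MBV replicate 3 (FDR 0.401), and -0.22 with fluvastatin (SE 0.35, FDR 0.702).

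Itgax, the integrin CD11c of dendritic cells and activated microglia, rested on 7 to 38 counts per library. The values were 0.484, 0.272 and 0.798 CPM with PBS, 0.286, 0.406 and 0.677 CPM with fluvastatin and 0.785, 0.749 and 1.61 CPM with MBV. All MBV libraries were above all fluvastatin libraries, and replicate 3 was far above the other MBV libraries. MBV compared to PBS gave a log2 fold change of 1.00 with a wide interval (SE 0.46, 95% confidence interval -0.04 to 2.04, FDR 0.146), which was 0.54 without MBV replicate 3 (FDR 0.408). Fluvastatin gave -0.17 (SE 0.47, FDR 0.838).

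Axl, a receptor tyrosine kinase of the TAM family that takes up apoptotic cells through the bridging ligand GAS6, was the gene called higher with MBV. It stood at 21.9, 22.7 and 27.8 CPM with PBS, 23.9, 20.4 and 25.4 CPM with fluvastatin and 31.7, 29.4 and 29.9 CPM with MBV. The 3 MBV libraries lay close together and above all 6 others, whereas PBS and fluvastatin overlapped. The rise with MBV was 1.23-fold, a log2 fold change of 0.30 (SE 0.09, 95% confidence interval 0.10 to 0.50, FDR 0.0322). It was as large without MBV replicate 3 (0.29, FDR 0.0331), but the call was lost without PBS replicate 1 (FDR 0.129), without PBS replicate 2 (FDR 0.103) and without MBV replicate 1 (FDR 0.108). Fluvastatin gave -0.05 (SE 0.10, FDR 0.786). MBV compared to fluvastatin gave 0.36 (SE 0.08, unadjusted p 0.00186 by edgeR's test, FDR 0.226), higher in 3 of 3 libraries.

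The other phagocytic receptors and bridging ligands came to 18 genes, of which 1 was called higher and 2 lower with fluvastatin (median log2 fold change -0.10, or -0.09 with genes at 0 in a group at their bound). Gas6, the ligand of AXL, rose from 162 ± 2.54 to 187 ± 9.09 CPM (log2 fold change 0.21, FDR 0.0109). Itgb5, an integrin subunit used in the uptake of photoreceptor outer segments, fell from 35.5 ± 0.702 to 29.7 ± 2.82 CPM (FDR 0.0323), and the scavenger receptor Msr1 from 0.781 ± 0.415 to 0.239 ± 0.0801 CPM (FDR 0.0356). The count rested on single libraries: 0 of the 18 were called without PBS replicate 1, Gas6 alone without PBS replicate 3, fluvastatin replicate 2 or fluvastatin replicate 3, and 6 without fluvastatin replicate 1, and Itgb5 was also not called without PBS replicate 2. With the replicate block 6 were called. With MBV 1 of the 18 was called, Mertk, another TAM receptor, which rose from 11.4 ± 0.528 to 16.0 ± 0.694 CPM (log2 fold change 0.46, FDR 0.00216). The median was 0.29, or 0.27 with such genes at their bound and 0.12 without MBV replicate 3, where 5 were called higher (Mertk, Gas6, Pros1, Itgav and Cd44) and 2 lower (Mfge8 and Cd36). Mertk was called in all 6 fits without a library, while the count was 3 without PBS replicate 3 or MBV replicate 2, 2 without MBV replicate 1, and 3 by DESeq2 and with the replicate block. Tyro3, the remaining TAM receptor and chosen here after its values were seen, gave 0.26 with fluvastatin (FDR 0.0575) and 0.30 with MBV (FDR 0.128) and was not called.

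**Figure D3:**
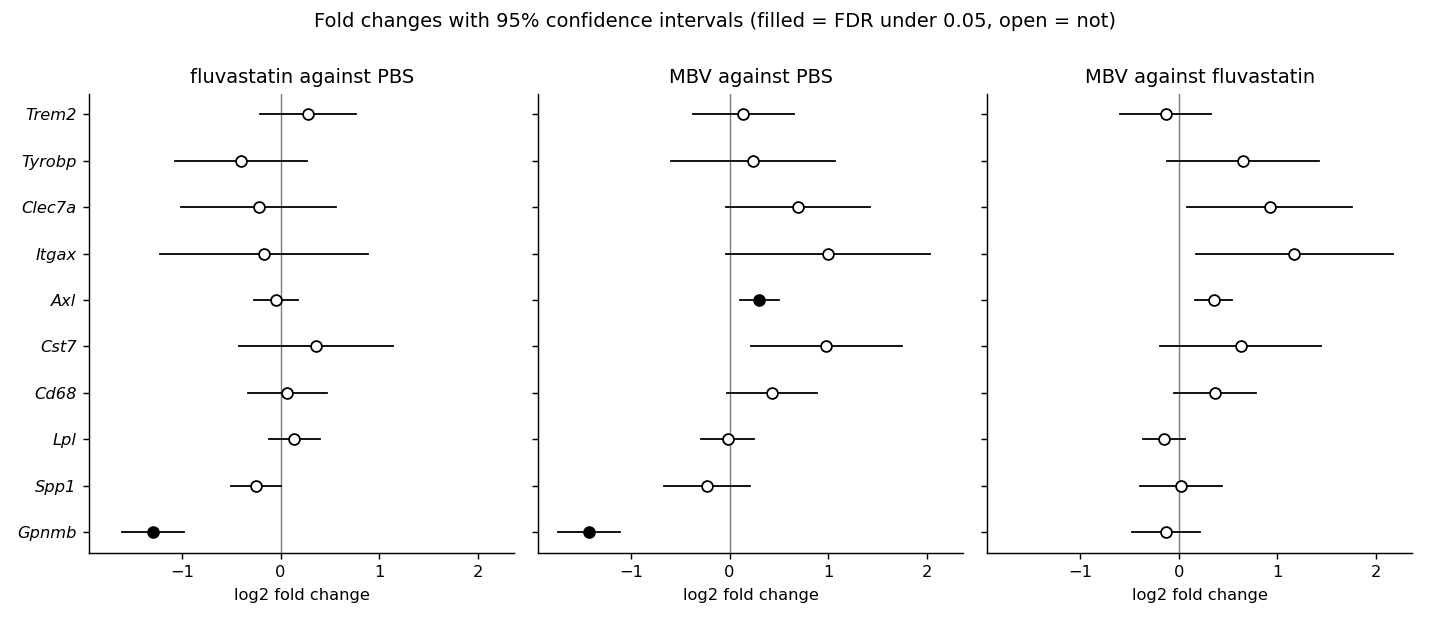
Log2 fold change of each gene with its 95% confidence interval from edgeR in the 3 comparisons; filled points have an FDR under 0.05. Gpnmb is filled in both comparisons with PBS (-1.29 and -1.43) and Axl with MBV (0.30), and the intervals of Itgax, Tyrobp, Clec7a and Cst7 are the widest.

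Cst7, which encodes cystatin F, an inhibitor of lysosomal cysteine proteases, rested on 10 to 25 counts per library. It was at 0.387, 0.441 and 0.418 CPM with PBS, 0.408, 0.517 and 0.677 CPM with fluvastatin and 0.748, 1.17 and 0.634 CPM with MBV. The MBV libraries were all above PBS, and replicate 3, highest for most of the genes, was the lowest of the 3. The log2 fold change of 0.98 (SE 0.34, 95% confidence interval 0.21 to 1.75) had an FDR of 0.0626, and without MBV replicate 3 it was 1.13 with an FDR of 0.0375. It also fell under the threshold (FDR 0.0406) when genes without more than 10 counts in 2 libraries of a group were left out. Fluvastatin gave 0.36 (SE 0.35, FDR 0.522).

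Cd68, macrosialin of the lysosome membrane and a general phagocyte marker, stood at 2.90, 2.55 and 3.80 CPM with PBS, 3.02, 3.58 and 3.00 CPM with fluvastatin and 3.96, 3.61 and 5.11 CPM with MBV. The MBV libraries exceeded all fluvastatin libraries and overlapped with PBS. Its log2 fold change with MBV was 0.43 (SE 0.20, FDR 0.155), 0.25 without MBV replicate 3 (FDR 0.368), and 0.07 with fluvastatin (SE 0.18, FDR 0.829).

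Lpl, lipoprotein lipase, which frees fatty acids from lipoproteins, was one of the more abundant genes and did not separate the groups. It stood at 20.3, 15.7 and 21.99 CPM with PBS, 19.1, 21.6 and 23.0 CPM with fluvastatin and 18.2, 19.2 and 21.1 CPM with MBV, so all groups overlapped. The log2 fold change was 0.14 with fluvastatin (SE 0.12, 95% confidence interval -0.12 to 0.40, FDR 0.441) and -0.02 with MBV (SE 0.12, 95% confidence interval -0.29 to 0.25, FDR 0.932).

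Of 18 further genes of lysosome and lipid handling, 3 were called lower with fluvastatin. Abca1, the exporter of cholesterol to apolipoproteins, fell from 117 ± 4.85 to 65.3 ± 8.40 CPM (log2 fold change -0.83, FDR 0.000532). Lipa, the lysosomal acid lipase, fell from 18.4 ± 1.57 to 15.0 ± 1.23 CPM (FDR 0.0402). Without PBS replicate 1, PBS replicate 3 or fluvastatin replicate 2, Abca1 was the 1 gene called. Lipa was also not called without fluvastatin replicate 3, and 5 genes were called with the replicate block. With MBV 1 was called higher and 2 lower. Among the latter, Abca1 fell to 87.0 ± 3.21 CPM (log2 fold change -0.46, FDR 0.000665). The list's median was -0.04 with fluvastatin and 0.09 with MBV, or -0.11 and 0.05 with genes at 0 in a group at their bound. Without MBV replicate 3 the MBV median was -0.05, with 2 called lower, Abca1 among them, and without PBS replicate 1, PBS replicate 2 or MBV replicate 1 only Abca1 was called.

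Spp1, osteopontin, a secreted integrin ligand, had 22.6, 24.7 and 30.6 CPM with PBS, 18.9, 23.6 and 22.8 CPM with fluvastatin and 17.8, 19.7 and 30.0 CPM with MBV. MBV replicates 1 and 2 lay below all PBS libraries, and replicate 3 near the top of the PBS range. With all libraries the log2 fold change with MBV was -0.23 (SE 0.19, FDR 0.424). Without MBV replicate 3 it was -0.52 (SE 0.11, FDR 0.00466) and was called, so this library decided the call. Fluvastatin gave -0.25 (SE 0.11, 95% confidence interval -0.50 to 0.01, FDR 0.167).

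Gpnmb, a transmembrane glycoprotein of late endosomes and melanosomes that activated phagocytes and pigment cells express, was the gene with the largest change of the 10. Its counts were 1582, 1172 and 1471 with PBS, 588, 441 and 461 with fluvastatin and 502, 334 and 501 with MBV. This made 51.0, 39.8 and 55.9 CPM with PBS, 24.0, 16.3 and 19.5 CPM with fluvastatin and 18.8, 15.6 and 21.2 CPM with MBV. Every treated library lay below every PBS library, while fluvastatin and MBV overlapped. Compared to PBS the level was 2.45-fold lower with fluvastatin (log2 fold change -1.29, SE 0.14, 95% confidence interval -1.61 to -0.97, FDR 0.000743) and 2.69-fold lower with MBV (-1.43, SE 0.14, 95% confidence interval -1.74 to -1.11, FDR 0.000531). Without MBV replicate 3 the change with MBV was -1.55 (FDR 1.24e-05). The call was kept in all 6 fits that left out 1 library, in each comparison with PBS. Between MBV and fluvastatin the difference was -0.13 (SE 0.15, 95% confidence interval -0.47 to 0.21, FDR 0.764).

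Genes of pigment cells moved with Gpnmb. The summed level of 8 pigment cell markers was 101 to 149 CPM with PBS, 37.7 to 45.7 CPM with fluvastatin and 29.3 to 51.2 CPM with MBV. With fluvastatin 5 of the 8 were called lower (Pmel, Dct, Tyr, Tyrp1 and Mlana) and with MBV 6 (the same 5 and Oca2), with median log2 fold changes of -1.71 and -1.97 (-2.28 without MBV replicate 3). The 3 markers with the highest level were Dct (60.0 ± 15.0 CPM with PBS, 18.7 ± 2.45 CPM with fluvastatin, 18.5 ± 2.95 CPM with MBV), Tyrp1 (25.0 ± 4.62, 6.42 ± 2.46 and 4.72 ± 3.71 CPM) and Pmel (19.1 ± 2.48, 4.72 ± 0.584 and 3.57 ± 1.04 CPM), which make or hold melanin. Rpe65, the visual cycle isomerase that defines the retinal pigment epithelium, was at 4.63 ± 1.38 CPM with PBS, 6.59 ± 1.30 CPM with fluvastatin and 6.10 ± 3.50 CPM with MBV and was not called, though it was called higher with fluvastatin without PBS replicate 2 or fluvastatin replicate 1. Slc45a2, a melanosome transporter, was not called either. None of the 8 markers was at 0 in any group. The part of the pigment cell RNA in the Gpnmb result was not tested.

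**Figure D4:**
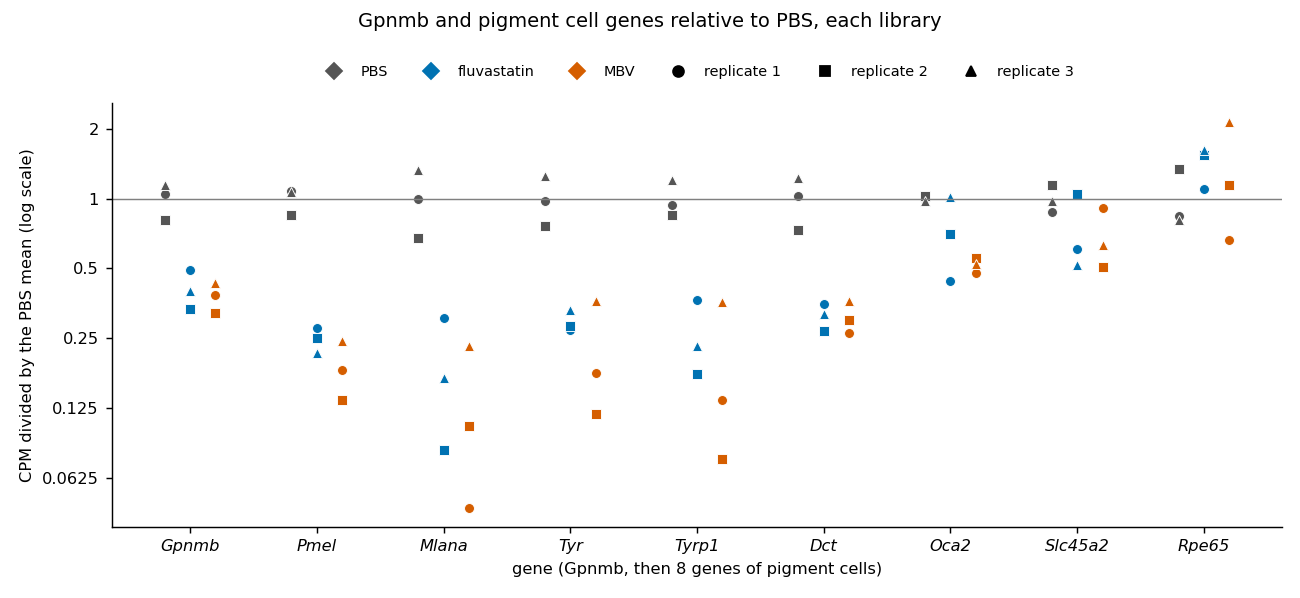
CPM of Gpnmb and of 8 pigment cell genes divided by the PBS mean of the gene, on a log axis, one point per library (grey PBS, blue fluvastatin, orange MBV; shapes are replicates). Gpnmb lies at 0.333 to 0.491 of the PBS mean with fluvastatin and 0.320 to 0.433 with MBV. Pmel and Mlana lie below Gpnmb in all treated libraries. Tyr, Tyrp1 and Dct reach lower but overlap with Gpnmb with MBV (up to 0.361, 0.357 and 0.361). Tyrp1 and Dct also overlap with it with fluvastatin (up to 0.366 and 0.350), and Rpe65 does not follow.

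The promoters of 3 pigment genes, shown beside that of Gpnmb above, held the M-box variant that the Gpnmb window lacks, out of 5 pigment genes with a RefSeq window. They are printed in the same way, with these letters in capitals.
Tyr, chr7:87493493-87493672, reverse strand: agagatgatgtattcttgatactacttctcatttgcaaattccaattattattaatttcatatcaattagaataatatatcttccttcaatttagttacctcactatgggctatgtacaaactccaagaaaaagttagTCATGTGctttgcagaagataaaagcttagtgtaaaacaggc
Tyrp1, chr4:80834053-80834232, forward strand: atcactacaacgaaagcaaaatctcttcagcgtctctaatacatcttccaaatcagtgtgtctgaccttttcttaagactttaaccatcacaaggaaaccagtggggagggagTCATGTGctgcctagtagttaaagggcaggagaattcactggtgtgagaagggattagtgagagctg
Dct, chr14:118052227-118052406, reverse strand: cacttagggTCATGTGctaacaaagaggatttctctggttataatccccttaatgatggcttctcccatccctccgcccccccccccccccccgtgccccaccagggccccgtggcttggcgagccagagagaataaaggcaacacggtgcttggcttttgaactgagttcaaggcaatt
The absence of these letters from the Gpnmb window says only that they are not in these 300 bases.

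Beyond the 10, a list of 18 other disease-associated microglia genes had 3 called lower with fluvastatin (median log2 fold change -0.14). Igf1, a growth factor, fell from 61.3 ± 4.16 to 47.3 ± 3.63 CPM (FDR 0.00628), Apoe, the lipid carrier that Müller glia make as well, from 315 ± 17.5 to 179 ± 69.2 CPM (log2 fold change -0.81, FDR 0.0202), and Timp2, an inhibitor of metalloproteinases, from 93.0 ± 7.03 to 77.9 ± 5.05 CPM (FDR 0.0223). Igf1 was called in all 6 fits that left out a library and was the 1 gene called without PBS replicate 1 or fluvastatin replicate 2. Timp2 was also not called without PBS replicate 3 or fluvastatin replicate 3, 5 genes were called without fluvastatin replicate 1, and DESeq2 did not call Apoe. With MBV Ctsz, a lysosomal cathepsin, rose from 21.7 ± 2.21 to 29.8 ± 0.955 CPM (log2 fold change 0.43, FDR 0.00444). Igf1 fell to 47.4 ± 3.45 CPM (log2 fold change -0.40, FDR 0.00338) and Ank, a membrane protein that raises extracellular pyrophosphate, from 83.2 ± 1.91 to 77.0 ± 2.92 CPM (FDR 0.0365). Without a library, Ctsz and Igf1 were called in all 6 fits and Ank in 1, that without MBV replicate 2, where 5 genes were called, as with the replicate block. The median with MBV was 0.04, and -0.11 without MBV replicate 3, where 1 gene was called higher and 5 lower. Apoe, with 194 ± 86.9 CPM and an FDR of 0.0699 in all MBV libraries, was among these 5 (log2 fold change -1.16, FDR 2.38e-05). The summed level of 6 Müller glia markers was 2769 to 3359 CPM with PBS, 1662 to 2708 CPM with fluvastatin and 1525 to 2613 CPM with MBV, and its part in the Apoe result was not tested. Most of the sum was Glul, at 2322 ± 356, 1280.3 ± 615 and 1234 ± 668 CPM in the 3 groups. Of the 6 markers 4 were called lower with fluvastatin, but 1 without PBS replicate 1 or fluvastatin replicate 2, 2 without PBS replicate 2 or fluvastatin replicate 3, and 2 by DESeq2. Without fluvastatin replicate 1 they were joined by Vim and Gfap, called higher. Gfap was also called higher with fluvastatin without PBS replicate 3 and with the replicate block. With MBV 2 were called lower, and 3 lower and Vim higher without MBV replicate 3. In the reported fit Vim gave a log2 fold change of 0.39 with fluvastatin and 0.54 with MBV, Gfap 0.80 and 0.33, and Slc1a3 0.02 with MBV, none of which was called, the 3 named here after their values were seen.

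Of 12 genes of resting microglia, 1 was called with fluvastatin, Gpr34, a receptor for lysophosphatidylserine, which fell from 4.35 ± 0.339 to 2.95 ± 0.659 CPM (log2 fold change -0.56, FDR 0.0458). With MBV 0 were called by edgeR or DESeq2, and 3 had an unadjusted p under 0.05 by edgeR, beside 7152 of all 18897 genes. Gpr34 was called in 1 of the 6 fits that left out a library, that without fluvastatin replicate 3, and DESeq2 called 0 with fluvastatin as well. With MBV 1 gene was called without MBV replicate 1 (Selplg, higher) and 1 without MBV replicate 2 (P2ry12, lower). Their summed level was 66.3 to 77.9 CPM with PBS, 61.4 to 72.4 CPM with fluvastatin and 67.4 to 84.1 CPM with MBV, the highest in MBV replicate 3. The median log2 fold change was -0.03 with fluvastatin and 0.03 with MBV, or -0.17 without that library. None of the 12 was at 0 in any group, and Csf1r, the receptor microglia need to survive, led them at 21.2 ± 1.46 CPM with PBS.

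MBV compared to fluvastatin lies within 1 library set. Of the 10 genes 7 had a log2 fold change above 0, with a median of 0.36 that was 0.22 without MBV replicate 3, beside 0.01 over all genes. Itgax, Cd68 and Axl were higher in every MBV library than in every fluvastatin library and Trem2 was lower, and 16.1% of all genes tested had groups without overlap. The log2 fold change was 1.17 for Itgax (SE 0.45, FDR 0.413), 0.92 for Clec7a (SE 0.37, FDR 0.434), 0.65 for Tyrobp (SE 0.34, FDR 0.531), 0.63 for Cst7 (SE 0.36, FDR 0.573) and 0.37 for Cd68 (SE 0.19, FDR 0.507). It was -0.13 for Trem2 (SE 0.21, FDR 0.833), -0.15 for Lpl (SE 0.10, FDR 0.608) and 0.02 for Spp1 (SE 0.19, FDR 0.979). Without MBV replicate 3 the values for Itgax, Clec7a and Tyrobp were 0.71, 0.59 and 0.25, and that for Axl was 0.35 (FDR 0.105). The intervals of Itgax (0.17 to 2.18) and Clec7a (0.09 to 1.76) were above 0 before adjustment, so these data neither show a difference at the threshold nor show that the treatments act alike.

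MBV replicate 3 was the highest MBV library for 8 of the 10 genes, all but Axl and Cst7. PBS replicate 3 was the highest PBS library for 9, all but Cst7. The shares of all genes for which these libraries were highest are not given here. PBS replicate 3 also had the highest monocyte sum of its group, 7.03 CPM against 3.65 and 3.29 CPM. Leaving MBV replicate 3 out raised the number of the 10 genes called with MBV compared to PBS from 2 to 4 (Cst7 higher, Spp1 lower, Gpnmb lower and Axl higher), against 30.1% of all genes tested instead of 26.1%. Between MBV and fluvastatin it left 0 of the 10 called by edgeR, against 1.06% of all genes called. In that fit 3 of the 10 (Lpl and Spp1 lower, Axl higher) had an unadjusted p under 0.05 by edgeR. The share of all genes at that unadjusted p is not given here. The part of the monocytes in the values of this library was not tested. Its monocyte markers were led by Ccr2, at 0.823 ± 0.636 CPM with PBS, 0.740 ± 0.383 CPM with fluvastatin and 4.14 ± 4.63 CPM with MBV.

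**Figure D5:**
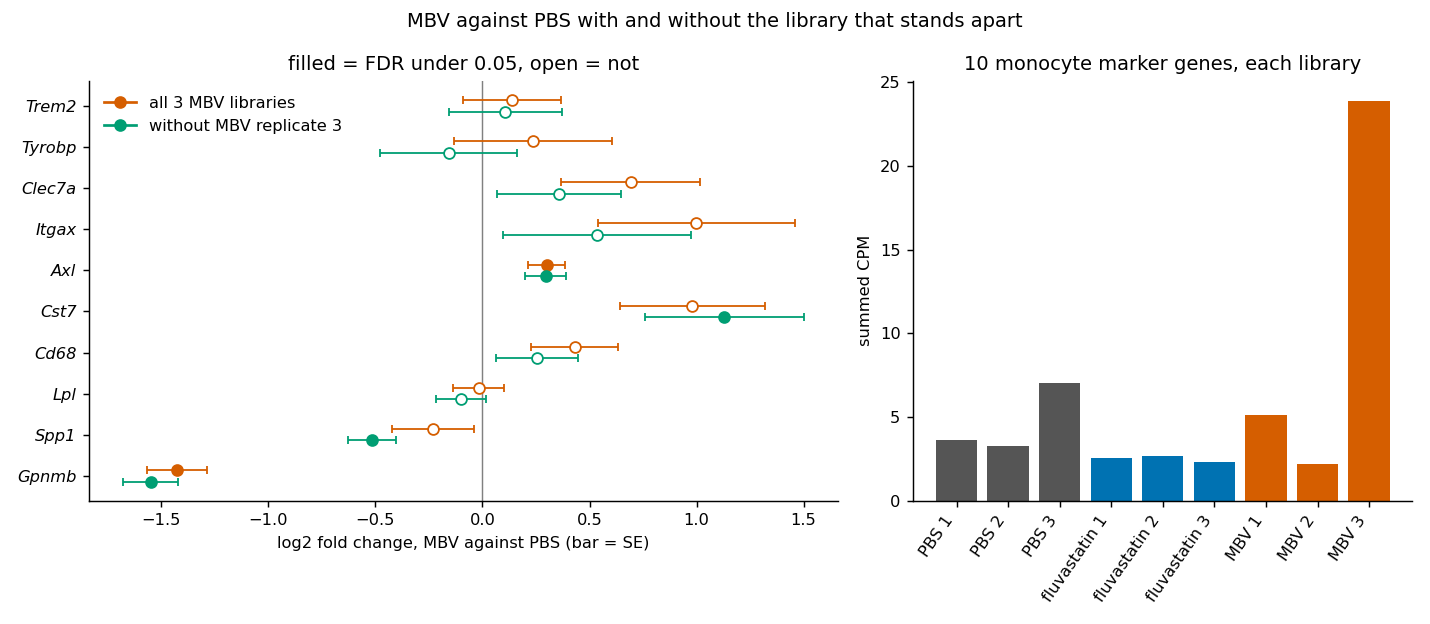
Left, log2 fold change of the 10 genes with MBV compared to PBS with all 3 MBV libraries (orange) and without MBV replicate 3 (green), bars are the SE and filled points have an FDR under 0.05. Right, summed CPM of 10 monocyte markers in each library. Cst7 and Spp1 become called without the library, whose monocyte sum is 23.9 CPM, and Tyrobp, Clec7a and Itgax move down.

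The genes whose pattern over the 9 libraries was most like each of the 10 were sought among 13964 genes by Pearson's r of log2(CPM + 0.5), as a description with no test. The points share depth and library set. With 13964 genes searched over 9 libraries, a high r can come from the search alone, so a partner does not show which cells made the RNA. Tyrobp varied most like C1qc, a complement subunit that microglia make (r = 0.96, Spearman's rho = 0.93, r = 0.93 without the 2 libraries farthest from the median), and Vsir (r = 0.95, rho = 0.77). Cd68 ran with Inpp5d, the phosphatase SHIP1 of the same signalling list (r = 0.98, rho = 0.93), and with C3ar1, the receptor for C3a (r = 0.97, rho = 0.90). Clec7a was most like Tlr13 (r = 0.96, rho = 1.0) and Plek (r = 0.92, rho = 0.87), and Itgax most like Serpine2 (r = 0.94, rho = 0.97) and Itgam, CD11b (r = 0.94, rho = 0.97). The nearest to Spp1 were Ctsb, cathepsin B (r = 0.93, rho = 0.85), and Muc5ac (r = 0.92, rho = 0.87). Without the 2 libraries farthest from the median of Spp1, r was 0.75 with Ctsb and 0.80 with Muc5ac.

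Other patterns led to genes that are not typical of phagocytes. Lpl was most like Slc17a6, the vesicular glutamate transporter of RGCs (r = 0.96, rho = 0.95), and Slc16a14 (r = 0.92, rho = 0.88). Axl ran with Nckipsd (r = 0.98, rho = 0.98) and Nfkbia, the inhibitor of NF-kappaB (r = 0.95, rho = 0.97). Its MBV libraries lay above all others, so these r can rest on that step between groups, which was not tested. Cst7 ran with Trip6 (r = 0.97, rho = 0.95) and Osbpl10 (r = 0.97, rho = 0.92). For Trem2 the nearest were Hexim2 (r = 0.91, rho = 0.72) and Yy2 (r = 0.91, rho = 0.53), which rested on 2 libraries, since r was 0.43 and -0.08 without them. The Gpnmb libraries fall into PBS and treated clusters, so only the 6 treated libraries are given, in which r was 0.92 with Nr3c1, the glucocorticoid receptor, and 0.87 with Commd6.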

How the data were processed

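Total RNA of the whole retina was sequenced with 75-base paired-end reads in 4 groups of 3 samples. Per the methods of the study, alignment to GRCm39 and counting per gene were done in CLC Genomics Workbench. The deposited counts are raw counts per gene, without normalization. The 9 columns that repeat a library in a further table were identical and used once. The 6 count columns of the table of the combined treatment carry no library name, so they were used in no step, and the comparisons with that group planned here were not run. The columns of the authors' own comparisons (fold changes, p-values, FDRs and means) were not used.

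Genes with at least 1 count in the 6 libraries of a comparison were fitted after TMM normalization in R 4.3.3 with edgeR 4.0.16 (quasi-likelihood test, 2 groups, no covariate). P-values were adjusted over all genes tested by Benjamini-Hochberg, and a standard error is the log2 fold change divided by the root of F. The procedure was tested on simulated data. Replicates varied by 7.78% (fluvastatin against PBS), 8.57% (MBV against PBS) and 10.1% (MBV against fluvastatin), from the common dispersion. CPM are counts per 1000000 of the gene total, and RPKM used the union of exons of GENCODE mouse release M39. 3 counts correspond to 0.0968 to 0.141 CPM. A gene with 0 counts in a group was set to this limit for the medians at the bound. Python 3.11.15, numpy 2.4.6, pandas 2.3.3, scipy 1.17.1 and matplotlib 3.10.9 were used for the rest, and DESeq2 1.42.0 as the other test.

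The 10 genes, the 5 gene lists, the 8 lists of cell type markers (monocyte, neutrophil, dendritic cell, pigment cell, RGC, Müller glia, endothelial cell, retina) and the motifs were chosen with earlier results of these data known. Named genes are the 10, up to 3 called genes of each list with the smallest FDR in each comparison with PBS, the 3 markers of each cell type with the highest mean CPM, and the 2 genes most like each of the 10 among genes with a mean of at least 1 CPM. Some genes of these lists are not reported here.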

Additional observations from a re-analysis of the deposited data

How the results depend on the processing

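Gpnmb was called lower compared to PBS with either treatment under every filter, scaling and test tried and in every fit without 1 library, except when the test statistics were divided by the genomic inflation of the comparison, the median statistic over that of unchanged genes (4.26 with fluvastatin, 5.45 with MBV). With that division 0 of the 10 genes were called in either comparison with PBS (Gpnmb FDR 0.299 and 0.318). Without that division, and with a fold change of at least 2 required beside the FDR, Gpnmb alone of the 10 was called in each comparison with PBS. Without 1 library, 1 to 4 of the 10 were called with MBV compared to PBS, 1 without PBS replicate 1, PBS replicate 2 or MBV replicate 1, and 4 without MBV replicate 3. The share of all genes called is given here only for the reported fits and for those without MBV replicate 3. Counts under the other alternatives, of the 10 and of the lists, can therefore not be set against all genes. Between MBV and fluvastatin 0 of the 10 were called by edgeR or DESeq2 under all alternatives. The reported fit had 3 of the 10 at an unadjusted p under 0.05 by edgeR, beside 2001 of the 18721 genes tested. The replicate numbers did not pair the samples, since 1 of 9 pairs of same-numbered libraries had a correlation of deviations above 0.1 (-0.37 to 0.16) and 1 of 9 correlated best with its own number. With the number as a replicate block, 1, 2 and 0 of the 10 were called, as without it, and Spp1 between MBV and fluvastatin had a log2 fold change of -0.00642. Without TMM, Lpl with MBV compared to PBS had a log2 fold change of 0.0129.

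Directions near 0 turned when 1 library was left out. With fluvastatin compared to PBS, the log2 fold change ranged from -0.54 to 0.26 for Itgax, -0.69 to 0.0444 for Clec7a, -0.0518 to 0.24 for Cd68 and -0.11 to 0.0650 for Axl. With MBV compared to PBS it ranged from -0.0022 to 0.24 for Trem2, -0.16 to 0.54 for Tyrobp and -0.14 to 0.0763 for Lpl, and between MBV and fluvastatin from -0.26 to 0.18 for Spp1 and -0.25 to 0.0285 for Gpnmb. The cause was not tested, nor was it for the change of any call above. Of the counts of called genes in the lists and marker sets, 402 values under the alternatives stayed within 1.5 times the reported count and 144 did not, and with the division by the genomic inflation 0 genes of any list were called. Of the values of single genes under all alternatives, 361 kept direction and side of the threshold, 20 turned, 3 newly passed the threshold and 6 no longer passed it. The fit of all 3 groups and the lists without MBV replicate 3 were chosen after seeing the data. The fit of all 4 groups, the effects adjusted for library set, the interaction and the combined treatment against PBS were not run, since the combined group is not analysed here. The counts limit Itgax, Cst7, Trem2 and Clec7a most, with 7 to 85 counts per library.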

Other observations

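Other cell types of the retina gave these values in the same libraries. Of 7 RGC markers, 3 were called higher with fluvastatin (Nefh, Sncg and Thy1) and 1 with MBV (Nefh), with summed levels of 552 to 683 CPM with PBS, 625 to 821 CPM with fluvastatin and 611 to 701 CPM with MBV. Without fluvastatin replicate 1, 5 were called with fluvastatin, without fluvastatin replicate 2 Thy1 was not, and with MBV 2 were called without PBS replicate 3, MBV replicate 1 or MBV replicate 3. Nefl, Thy1 and Slc17a6, the most abundant, were at 338 ± 30.2, 99.8 ± 9.86 and 96.1 ± 16.7 CPM with PBS (SD, n = 3). The Müller glia markers Slc1a3 and Rlbp1 were at 224 ± 7.94 and 217 ± 4.81 CPM with PBS. Of 6 endothelial markers, Flt1 was called lower with fluvastatin and Cdh5 higher with MBV. The sums were 167 to 176 CPM with PBS, 143 to 155 CPM with fluvastatin and 169 to 176 CPM with MBV. The PBS sum was mostly Flt1, and 4 of the 6 had a log2 fold change above 0 with fluvastatin (median 0.20). Without fluvastatin replicate 1, Flt1 was called lower with fluvastatin, and Cdh5 and Pecam1 higher. With MBV 0 were called without PBS replicate 1 or PBS replicate 2, 2 without MBV replicate 1 and 3 without PBS replicate 3. Flt1, Pecam1 and Cldn5 led them at 142 ± 6.63, 7.92 ± 1.58 and 5.53 ± 1.01 CPM with PBS. Of 9 markers of retinal neurons and glia, 3 were called lower with fluvastatin, among them Rlbp1, and 4 with MBV, among them Rlbp1 and Pde6b, which was at 1583 ± 109 CPM with PBS. The fluvastatin count was 1 without PBS replicate 1 and 5 without PBS replicate 3. Without fluvastatin replicate 1, 5 were called lower and Rbpms higher. The MBV count was 2 without PBS replicate 1, PBS replicate 2, MBV replicate 1 or MBV replicate 2.

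Of 7 dendritic cell markers, 1 was called lower with fluvastatin, H2-Aa, and 0 with MBV by edgeR or DESeq2, where 1 had an unadjusted p under 0.05. Their sums were 16.8 to 19.1 CPM with PBS, 16.0 to 19.2 CPM with fluvastatin and 20.5, 20.8 and 32.3 CPM with MBV, the last in replicate 3. Zbtb46, H2-Aa and Flt3 led them at 14.1 ± 0.585, 1.78 ± 0.423 and 1.78 ± 0.366 CPM with PBS. The PBS sum was thus mostly the level of 1 gene, Zbtb46. H2-Aa was not called with fluvastatin without PBS replicate 1 or fluvastatin replicate 2, and with MBV it was called higher without MBV replicate 2. Of 10 monocyte markers S100a4, and of 7 neutrophil markers tested S100a8, was called lower with fluvastatin, but neither was called by DESeq2 or in any of the 6 fits that left out a library, where F13a1 was called lower without fluvastatin replicate 1. With MBV 0 of either list were called by edgeR, 3 monocyte and 0 neutrophil markers had an unadjusted p under 0.05, and DESeq2 called 1 and 0. Without MBV replicate 2, 4 monocyte markers were called higher with MBV (Ccr2, Ly6c2, Ms4a4c and Plac8), without MBV replicate 1 Ly6c2 was called higher, and without MBV replicate 3 F13a1 was called lower. Beside Ccr2, the monocyte markers S100a4 and F13a1 were at 1.77 ± 0.269 and 1.20 ± 0.643 CPM with PBS, and the neutrophil markers Csf3r, S100a8 and S100a9 at 0.986 ± 0.225, 0.295 ± 0.140 and 0.205 ± 0.0784 CPM.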
